A study of Homo sapiens with 6 samples.

Results

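The 36 genes described here encode proteins of mismatch repair, base excision and single-strand break repair, and nucleotide excision repair. They were chosen by gene name from the 34738 genes of the expression table, and each name matched 1 row. Poly(A) RNA was sequenced as read pairs of 150 bases from a thyroid cancer line, KHM-5M by the labels of all 6 libraries, whereas a figure legend of the study names TPC-1. Of the libraries, 3 came from cells given an siRNA against GDF15, a stress-responsive cytokine of the TGF-beta family (siGDF15), and 3 from control cells (NC). NC is a negative control in the study's methods and a blank control in the deposited design text, so an effect of transfection itself cannot be told apart from that of siGDF15 if NC cells received no siRNA. The siRNA lowers GDF15 transiently, and 1 siRNA in 1 line was sequenced. The methods call the replicates biological, without saying whether they were separate cultures.

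Each of these routes repairs damage on 1 DNA strand by using the other strand as a template. Mismatch repair removes errors left by replication. In base excision repair a glycosylase cuts out a single altered base, an endonuclease opens the strand there, and a polymerase and a ligase restore it, with PARP enzymes marking the open strand. Nucleotide excision repair recognises bulky lesions such as those made by ultraviolet light, unwinds the helix around them with the TFIIH complex and removes a short stretch.

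The deposited table gives FPKM (fragments scaled by transcript length and library size) and whole-number expected counts that the authors derived from transcript coverage. Total counts lay between 67569576 and 68025163 in NC and between 51738814 and 67793417 in siGDF15, with the lowest in siGDF15 replicate 2. Levels below are FPKM, and differences are log2 fold changes of siGDF15 against NC from edgeR's quasi-likelihood test on counts after TMM scaling. Adjusted p-values are Benjamini-Hochberg values over the 11867 genes that averaged 1 FPKM or more across the 6 libraries. A gene is said to have risen or fallen at an adjusted p under 0.05, and the study's own thresholds further require an absolute log2 fold change of 1 or more. TMM centred the tested genes at a median log2 fold change of 0.0026, whereas on log2 of FPKM plus 0.1 that median was -0.10, so FPKM alone placed a typical gene slightly lower in siGDF15. GDF15 had 22.4, 19.3 and 23.2 FPKM in NC and 10.8, 10.5 and 10.7 FPKM in siGDF15, a log2 fold change of -0.92 (SE 0.079, adjusted p = 2.4e-05 from edgeR). Of 7 thyroid genes checked, PAX8 (mean 59.1 FPKM in NC) and FOXE1 (2.76 FPKM) were present and the list summed to 57.0 to 67.9 FPKM in NC and 80.4 to 83.6 FPKM in siGDF15, while NKX2-1, TG, SLC5A5 and SLC26A4 were each under 1 FPKM in both groups. Of the fibroblast genes checked, 4 of 5 had a mean of at least 1 FPKM, with sums of 16.6 to 22.5 in NC and 17.3 to 20.5 in siGDF15, and the white blood cell genes summed to at most 0.268 FPKM in any library.

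Of the 36 repair genes, 34 passed the filter on low expression. Of these, 16 fell, 7 rose and 11 did not pass the test, beside 61.4% of all tested genes that passed in either direction. The 16 that fell were 47.1% of the tested members, beside 31.4% of all tested genes. The 7 that rose were 20.6%, beside 30.0% of all tested genes. Scaling by the total count without TMM gave 18 lower and 4 higher. The study's thresholds were passed by 2 members, NEIL3 and PARP2, both lower, or 5.88% of the members beside 4.78% of all tested genes (7.81% in either direction). None passed them in the other direction, where the background was 3.03%. The median log2 fold change of the 34 was -0.10. All 10 proliferation genes checked fell as well, with log2 fold changes between -1.91 and -1.21, and mitochondrial genes took 6.39% to 6.78% of counts in NC and 8.53% to 9.17% in siGDF15. The part of either in the changes of the members was not tested, and in bulk RNA fewer cells of a type and less RNA per cell cannot be told apart.

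The counts by pathway stand beside 31.4% of all tested genes that fell and 30.0% that rose. In mismatch repair 2 of 4 genes fell and none rose, with a median log2 fold change of -0.29. In base excision and single-strand break repair 12 of 21 fell and 2 rose, with a median of -0.29. In nucleotide excision repair 2 of 9 tested genes fell and 5 rose, with a median of 0.24. With ERCC4 and ERCC8 included, 5 rose and 4 fell of 11 with the filter at 0.1 FPKM, and 3 rose and 3 fell without a filter. ERCC1, ERCC6 and MPG lost their calls as higher under scaling by the total count. The difference between pathways was not tested.

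**Figure D1:**
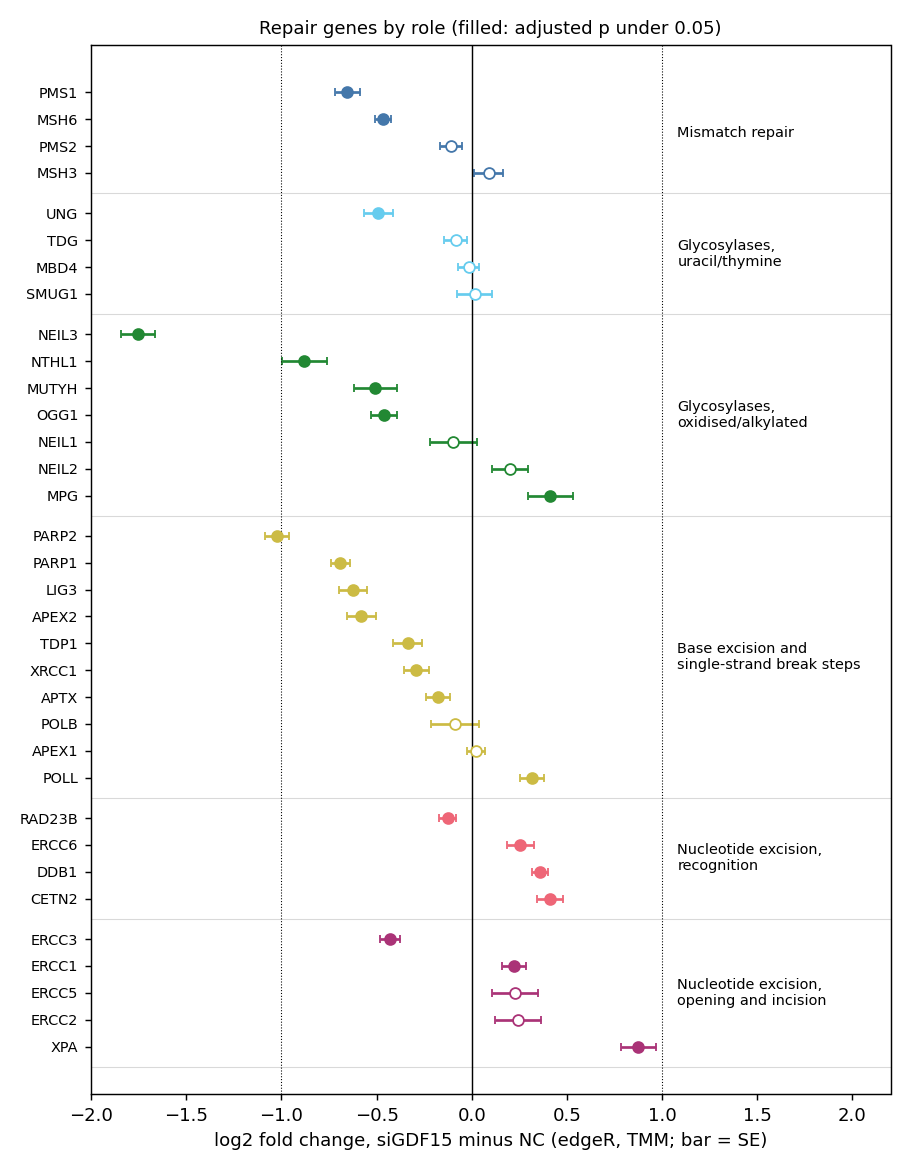
Log2 fold change of siGDF15 against NC for the 34 tested repair genes, ordered within 6 repair roles on the vertical axis; bars are standard errors, filled points have an adjusted p under 0.05 and dotted lines mark a log2 fold change of 1 in either direction. NEIL3 at -1.75 and PARP2 at -1.02 lie past the left line, and XPA at 0.88 is the highest point.

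Among the mismatch repair genes, PMS1 fell most. PMS1 is a MutL homologue that pairs with the same partner as PMS2, the subunit whose endonuclease nicks the strand to be corrected. PMS1 had 5.85, 5.78 and 5.87 FPKM in NC and 3.59, 3.14 and 3.61 FPKM in siGDF15. The groups lay far apart, with replicate 2 the lowest of the siGDF15 libraries. PMS1 fell by 0.65 on the log2 scale (SE 0.066, adjusted p = 5.5e-05 from edgeR). PMS2 averaged 2.49 ± 0.0749 FPKM (SD, n = 3) in NC and 2.15 ± 0.0510 FPKM in siGDF15, and its log2 fold change of -0.11 missed the threshold (adjusted p = 0.14 from edgeR). PMS2 has near-identical pseudogene copies, between which reads may have been split.

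MSH6 and MSH3 are the interchangeable MutS subunits, of which the MSH6 form finds single mismatched bases and the MSH3 form finds larger loops. MSH6 had 5.90, 5.80 and 5.75 FPKM in NC and 3.88, 3.92 and 3.96 FPKM in siGDF15. It fell by 0.46 on the log2 scale (SE 0.042, adjusted p = 3.1e-05 from edgeR). MSH3 had 3.16, 3.05 and 2.89 FPKM in NC and 3.22, 2.93 and 2.83 FPKM in siGDF15, so the groups overlapped. Its log2 fold change was 0.09, with a 95% interval from -0.09 to 0.27 (adjusted p = 0.34 from edgeR). Within a library, the ratio of MSH6 to MSH3 in FPKM, which does not depend on library scaling, was 1.87, 1.90 and 1.99 in NC and 1.2, 1.34 and 1.40 with siGDF15. The ratio of PMS1 to PMS2 was 2.42, 2.31 and 2.29 in NC and 1.63, 1.46 and 1.72 with siGDF15. Both ratios were lower in every siGDF15 library. These ratios and those below were chosen after the values were seen and are descriptions.

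Of the 4 glycosylases that remove uracil or mispaired thymine, UNG alone passed the test, beside 61.4% of all tested genes. UNG, the main uracil DNA glycosylase, which acts at replication forks and in mitochondria, had 11.7, 10.4 and 12.2 FPKM in NC and 8.10, 7.34 and 7.23 FPKM in siGDF15. No siGDF15 library reached the lowest NC library. UNG fell by 0.49 on the log2 scale (SE 0.077, adjusted p = 7.0e-04 from edgeR). SMUG1, a further uracil glycosylase, had 2.21, 2.44 and 2.29 FPKM in NC and 2.00, 2.35 and 2.18 FPKM in siGDF15, which overlapped (log2 fold change 0.02, 95% interval -0.19 to 0.23). TDG and MBD4, which excise thymine mispaired with guanine, had log2 fold changes of -0.08 and -0.02 and did not pass the test. TDG passed it, as lower, when counts were scaled by their total (adjusted p = 0.026 from edgeR).

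Glycosylases for oxidised or alkylated bases included the largest fall of all members, that of NEIL3. NEIL3 removes oxidised bases from single-stranded DNA and unhooks crosslinks between strands, and is known as the NEIL enzyme of dividing cells. It had 11.29, 10.98 and 10.89 FPKM in NC and 3.49, 2.84 and 2.82 FPKM in siGDF15. The 3 siGDF15 libraries were all below the lowest NC library, by a margin many times the spread within either group. The log2 fold change was -1.75 (SE 0.090, adjusted p = 1.7e-06 from edgeR), a 3.37-fold fall. It stayed between -1.85 and -1.58 under 16 alternatives. The gene (ENSG00000109674) spans bases 177309874 to 177362936 of chromosome 4 in GRCh38, plus strand.

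The promoter window of NEIL3 is shown because this gene changed most and because the window holds several of the motif words searched. It runs from 250 bases before to 50 bases after the start site (RefSeq, GRCh38.p14, plus strand, chr4:177309624-177309923). Capitals mark, from left to right, the word CCAAT, a 10-letter NRF1-like word and the word TTTGAA of the cell cycle genes homology region (CHR), an element known from genes expressed late in the cell cycle. They begin at positions -223, -104 and -24 from the start site.
NEIL3: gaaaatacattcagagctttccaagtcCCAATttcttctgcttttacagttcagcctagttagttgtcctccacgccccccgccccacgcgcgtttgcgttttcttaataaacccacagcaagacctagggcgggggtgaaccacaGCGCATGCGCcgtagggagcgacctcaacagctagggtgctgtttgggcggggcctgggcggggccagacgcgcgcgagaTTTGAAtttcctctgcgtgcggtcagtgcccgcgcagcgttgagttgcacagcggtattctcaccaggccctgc

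NTHL1, which excises oxidised pyrimidines, had 6.08, 6.43 and 7.83 FPKM in NC and 3.78, 3.16 and 3.32 FPKM in siGDF15. It fell by 0.88 on the log2 scale (SE 0.12, adjusted p = 3.1e-04 from edgeR), with NC replicate 3 above the other NC libraries. OGG1, which removes 8-oxoguanine, averaged 2.73 ± 0.136 FPKM (SD, n = 3) in NC and 1.84 ± 0.0488 FPKM in siGDF15, and fell by 0.46 on the log2 scale. MUTYH, which removes adenine placed opposite 8-oxoguanine, averaged 2.02 ± 0.229 FPKM (SD, n = 3) in NC and 1.31 ± 0.0760 FPKM in siGDF15, and fell by 0.51 (adjusted p = 4.9e-04 and 0.0043 from edgeR). OGG1 and MUTYH therefore fell by similar amounts, from low levels.

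NEIL1 and NEIL2, the relatives of NEIL3, did not pass the test. NEIL1 had means of 1.46 FPKM in NC and 1.27 FPKM in siGDF15 (log2 fold change -0.10, 95% interval -0.37 to 0.18). NEIL2 had a mean of 6.003 FPKM in NC and 6.42 FPKM in siGDF15 (log2 fold change 0.20, 95% interval -0.01 to 0.42), and passed as higher without NC replicate 3 (0.30, adjusted p = 0.0080 from edgeR). The ratio of NEIL3 to NEIL2 in FPKM was between 1.61 and 2.05 in NC and between 0.434 and 0.559 in siGDF15. NEIL3 was thus the more abundant of the pair per length in NC and the less abundant in siGDF15.

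MPG, the glycosylase for alkylated purines, was the member of this role that rose. It had 34.7, 42.3 and 28.7 FPKM in NC and 44.0, 43.9 and 42.8 FPKM in siGDF15. NC replicate 2 lay just under the lowest siGDF15 library, and the spread was wider in NC. MPG rose by a log2 fold change of 0.41 (SE 0.12, adjusted p = 0.015 from edgeR). The call was lost in 5 of 16 alternatives, with adjusted p = 0.050 without NC replicate 1 and up to 0.056 with limma on log2 of FPKM plus 0.1.

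**Figure D2:**
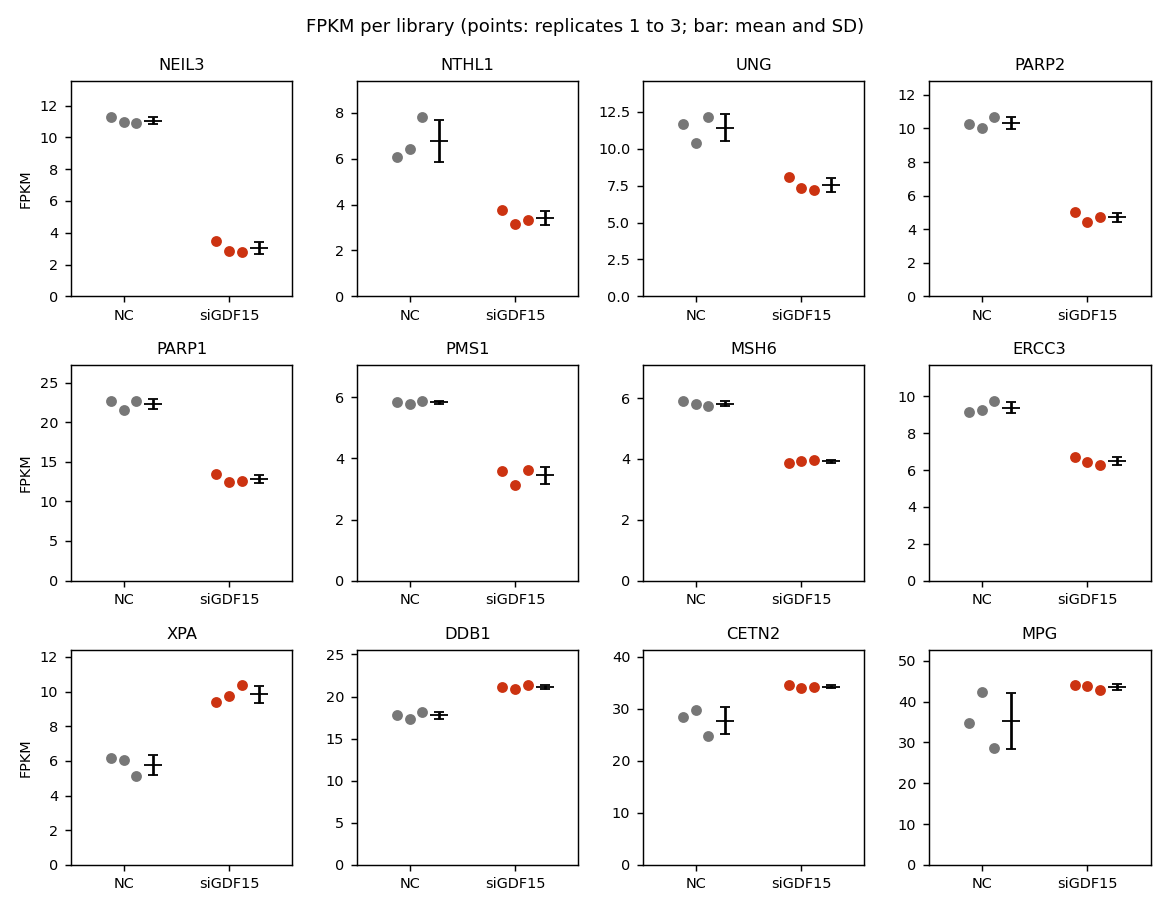
FPKM of 12 repair genes in each library (points, replicates 1 to 3 from left to right) with the mean and SD of each group; every vertical axis starts at 0. NEIL3, NTHL1, UNG, PARP2, PARP1, PMS1, MSH6 and ERCC3 were lower and XPA, DDB1, CETN2 and MPG higher in all siGDF15 libraries, with MPG the closest to overlap.

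Among enzymes that open, fill and seal the strand, 7 of 10 fell and 1 rose, beside 31.4% and 30.0% of all tested genes. PARP2 and PARP1 bind DNA breaks and attach poly(ADP-ribose) to themselves and to nearby proteins, which draws in XRCC1. PARP2 had 10.29, 10.02 and 10.69 FPKM in NC and 5.00, 4.46 and 4.72 FPKM in siGDF15. The groups were separate and each varied little. Its log2 fold change was -1.02 (SE 0.063, adjusted p = 4.0e-06 from edgeR), a 2.03-fold fall. It lay between -1.12 and -0.97 over 16 alternatives and came short of the study's fold threshold without NC replicate 3 (-0.99), without siGDF15 replicate 2 (-0.98) and under 3 other settings.

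PARP1, the main enzyme of the pair, had 22.7, 21.5 and 22.6 FPKM in NC and 13.5, 12.4 and 12.6 FPKM in siGDF15. It fell by 0.69 on the log2 scale (SE 0.048, adjusted p = 7.7e-06 from edgeR). PARP2 stood at 0.455, 0.466 and 0.473 of the PARP1 level in NC and at 0.371, 0.359 and 0.374 of it in siGDF15. PARP2 thus fell further than PARP1 in these libraries.

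The PARP2 gene (ENSG00000129484) spans bases 20343615 to 20357904 of chromosome 14 in GRCh38, plus strand. Its promoter window is shown for comparison with that of NEIL3, as the other member past both thresholds (RefSeq, GRCh38.p14, plus strand, chr14:20343385-20343684). None of the words searched occurs in it, so it has no capitals.
PARP2: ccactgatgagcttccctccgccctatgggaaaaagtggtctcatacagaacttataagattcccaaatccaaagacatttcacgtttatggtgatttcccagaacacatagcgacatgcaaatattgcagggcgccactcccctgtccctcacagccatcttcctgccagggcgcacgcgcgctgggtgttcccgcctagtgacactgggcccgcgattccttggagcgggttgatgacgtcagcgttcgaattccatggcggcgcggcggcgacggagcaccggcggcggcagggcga

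The scaffold protein XRCC1 and DNA ligase LIG3, which it holds and which seals the nick, both fell. LIG3 averaged 2.96 ± 0.226 FPKM (SD, n = 3) in NC and 1.78 ± 0.0958 FPKM in siGDF15, and fell by 0.62 on the log2 scale (adjusted p = 1.6e-04 from edgeR). XRCC1 averaged 12.9 ± 0.962 FPKM (SD, n = 3) in NC and 9.78 ± 0.229 FPKM in siGDF15, and fell by 0.29 (adjusted p = 0.0047). APEX2, a minor apurinic endonuclease with strong 3′ exonuclease activity that binds PCNA, averaged 8.71 ± 0.355 FPKM (SD, n = 3) in NC and 5.42 ± 0.400 FPKM in siGDF15, and fell by 0.58 (adjusted p = 2.6e-04). TDP1, which frees 3′ ends blocked by trapped topoisomerase I, had a log2 fold change of -0.34 (adjusted p = 0.0047 from edgeR). APTX, which clears abortive ligation products, had a log2 fold change of -0.18 (adjusted p = 0.037), and this call was lost in 7 of 16 alternatives with adjusted p up to 0.14 from edgeR.

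APEX1, the main apurinic endonuclease and the most abundant member per length, did not pass the test. It had 105, 101 and 107 FPKM in NC and 96.3, 101 and 98.2 FPKM in siGDF15. The values lay close together, with a log2 fold change of 0.02 and a 95% interval from -0.09 to 0.13 (adjusted p = 0.72 from edgeR). The level of APEX2 per level of APEX1 was between 0.0783 and 0.0863 in NC and between 0.0532 and 0.0582 in siGDF15. POLB, the polymerase that fills single-base gaps, had means of 2.41 and 2.10 FPKM and a log2 fold change of -0.09 (95% interval -0.38 to 0.20).

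POLL, a polymerase related to POLB, was the gene of this role that rose. It had 3.78, 3.73 and 3.74 FPKM in NC and 4.17, 4.29 and 4.56 FPKM in siGDF15. The lowest siGDF15 library was above the highest NC library, and the log2 fold change was 0.32 (SE 0.061, adjusted p = 0.0022 from edgeR).

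**Figure D3:**
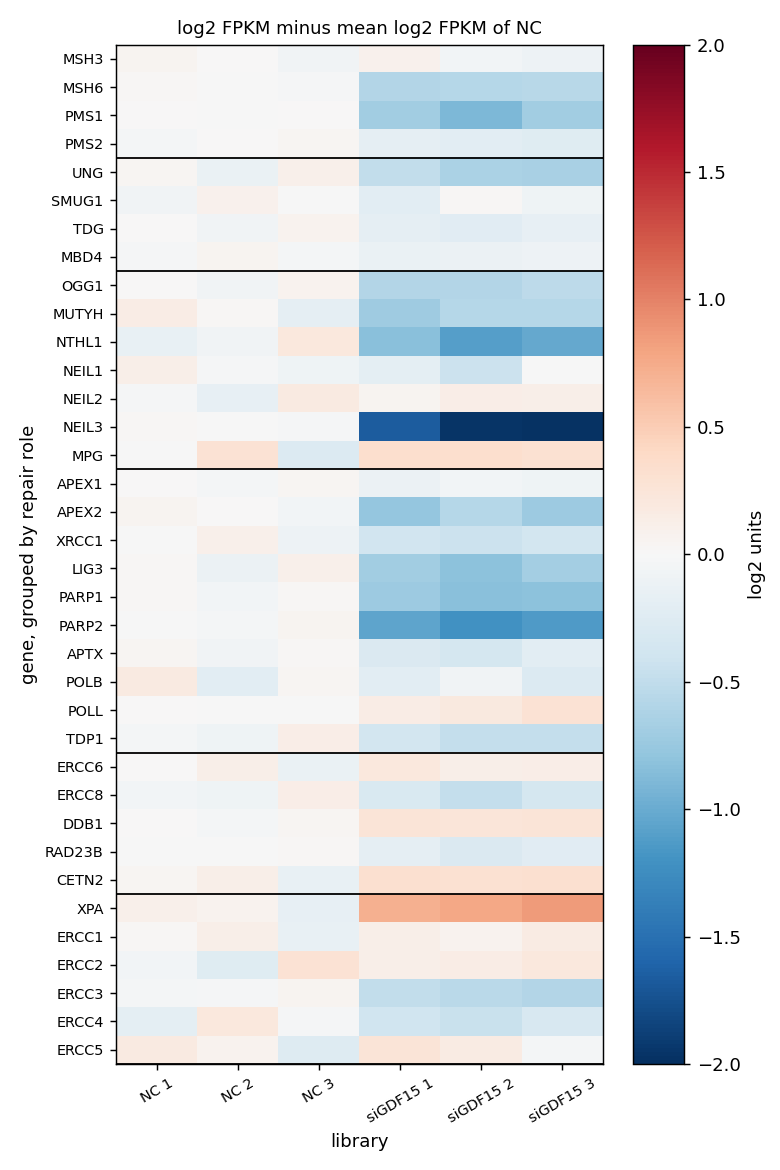
Log2 FPKM of all 36 repair genes in each of the 6 libraries, as the difference from the gene's mean log2 FPKM in NC; blue is lower and red higher, and black lines separate the 6 roles. The dark blue row is NEIL3, the reddest row is XPA, and the 3 siGDF15 columns look alike in most rows.

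Among the genes of damage recognition in nucleotide excision repair, 3 of 4 tested rose and 1 fell. Of all tested genes 30.0% rose and 31.4% fell. CETN2, a centrin that forms part of the lesion sensor with RAD23B, had 28.5, 29.9 and 24.8 FPKM in NC and 34.5, 34.0 and 34.3 FPKM in siGDF15. Every siGDF15 library was above every NC library, and its log2 fold change was 0.41 (SE 0.068, adjusted p = 9.1e-04 from edgeR). DDB1, the adaptor that links damage sensors to the CUL4 ubiquitin ligase, had 17.8, 17.3 and 18.2 FPKM in NC and 21.2, 20.9 and 21.3 FPKM in siGDF15. It rose by a log2 fold change of 0.36 (SE 0.042, adjusted p = 1.4e-04 from edgeR).

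RAD23B went the other way. It had 88.9, 88.0 and 89.9 FPKM in NC and 78.9, 72.7 and 75.8 FPKM in siGDF15, and fell by 0.13 on the log2 scale (SE 0.043, adjusted p = 0.032 from edgeR). This small fall lost its call in 7 of 16 alternatives, among them the fits without siGDF15 replicate 2 (adjusted p = 0.15) and without siGDF15 replicate 3 (adjusted p = 0.12).

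The genes of transcription coupling were weakly expressed. ERCC6, the ATPase that senses a stalled RNA polymerase, averaged 1.19 ± 0.101 FPKM (SD, n = 3) in NC and 1.32 ± 0.0497 FPKM in siGDF15, with overlapping libraries. Its log2 fold change was 0.25 (adjusted p = 0.014 from edgeR), and the call was lost when counts were scaled by their total (adjusted p = 0.10). ERCC8, the other member of transcription coupling, was below the filter. It had 0.484, 0.477 and 0.553 FPKM in NC and 0.407, 0.364 and 0.394 FPKM in siGDF15. With the filter at 0.1 FPKM its log2 fold change was -0.30 (adjusted p = 0.033 from edgeR), and without a filter -0.32 (adjusted p = 0.049).

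Among the genes that open the helix, verify the damage and cut the strand, 2 of 5 tested rose and 1 fell. These counts are near the shares of all tested genes, 30.0% higher and 31.4% lower. XPA showed the largest rise of all members. XPA checks the damaged strand and positions the nucleases. It had 6.14, 6.03 and 5.12 FPKM in NC and 9.38, 9.77 and 10.4 FPKM in siGDF15. The groups were well separated, and NC replicate 3 was the lowest library. The log2 fold change was 0.88 (SE 0.092, adjusted p = 7.3e-05 from edgeR), a 1.83-fold rise that lay between 0.68 and 0.93 over 16 alternatives.

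ERCC3 and ERCC2 are the paired helicases of TFIIH, a complex also needed to start transcription. ERCC3 had 9.15, 9.28 and 9.74 FPKM in NC and 6.70, 6.46 and 6.29 FPKM in siGDF15, and fell by 0.43 on the log2 scale (SE 0.051, adjusted p = 1.5e-04 from edgeR). ERCC2 had 18.9, 16.7 and 24.2 FPKM in NC and 21.3, 21.8 and 22.7 FPKM in siGDF15. NC spanned the whole range of siGDF15, and the log2 fold change of 0.24 missed the threshold (adjusted p = 0.11 from edgeR). Without NC replicate 3 it was 0.41 and passed (adjusted p = 3.8e-04). The ratio of ERCC3 to ERCC2 was between 0.403 and 0.556 in NC and between 0.277 and 0.315 in siGDF15. The ratio of XPA to ERCC3 was between 0.525 and 0.671 in NC and between 1.40 and 1.65 in siGDF15.

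The nucleases cut on either side of the lesion. ERCC1, the subunit that anchors the 5′ nuclease ERCC4, averaged 26.6 ± 2.45 FPKM (SD, n = 3) in NC and 28.8 ± 0.948 FPKM in siGDF15, with overlap. Its log2 fold change was 0.22 (adjusted p = 0.017 from edgeR), a call lost in 5 of 16 alternatives, with adjusted p = 0.15 when counts were scaled by their total. ERCC4 had 0.873, 1.16 and 0.988 FPKM in NC and 0.759, 0.739 and 0.804 FPKM in siGDF15. Its mean over the 6 libraries missed the filter, and with the filter at 0.1 FPKM its log2 fold change was -0.32 (adjusted p = 0.038 from edgeR), a call lost without a filter (adjusted p = 0.054). ERCC5, the 3′ nuclease, averaged 3.04 ± 0.462 FPKM (SD, n = 3) in NC and 3.31 ± 0.356 FPKM in siGDF15, with a log2 fold change of 0.23 (adjusted p = 0.13 from edgeR).

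In FPKM, the 3 siGDF15 libraries lay wholly below the NC libraries for 20 of the 34 tested members and wholly above for 5, beside 42.8% and 25.6% of all tested genes (68.4% in either direction). The 20 include TDG, MBD4, APEX1 and PMS2, which did not pass the test after TMM. An exact permutation test on any of these genes gives p = 0.1, the smallest that 3 libraries against 3 allow.

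Other genes of the same pathways were taken from lists. Of 20 repair factors that also serve replication, such as PCNA, its loader and the replicative polymerases, 18 fell and 1 rose. Their median log2 fold change was -1.21. Of all tested genes 31.4% fell and 30.0% rose. Of the 20 factors, 11 (55%) passed both thresholds as lower, beside 4.78% of all tested genes. They were EXO1, PCNA, RFC3, RFC4, RFC5, LIG1, FEN1, POLD1, POLD3, POLE and POLE2. EXO1, the exonuclease of mismatch repair, went from 14.6 to 3.93 FPKM, a log2 fold change of -1.79 (SE 0.079, adjusted p = 9.0e-07 from edgeR). Of the 23 tested repair genes outside replication, 7 fell and 7 rose (30.4% each), near the shares of all tested genes. Their median was -0.03, with a range from -1.17 to 0.88. The one past both thresholds was HMGB1, a chromatin protein that bends DNA, at -1.17. Among the others the lesion sensor XPC rose (log2 fold change 0.39, adjusted p = 8.6e-04 from edgeR) and DDB2, which feeds lesions to it, fell (-0.33, adjusted p = 0.0023), and both were named after their values were seen.

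**Figure D4:**
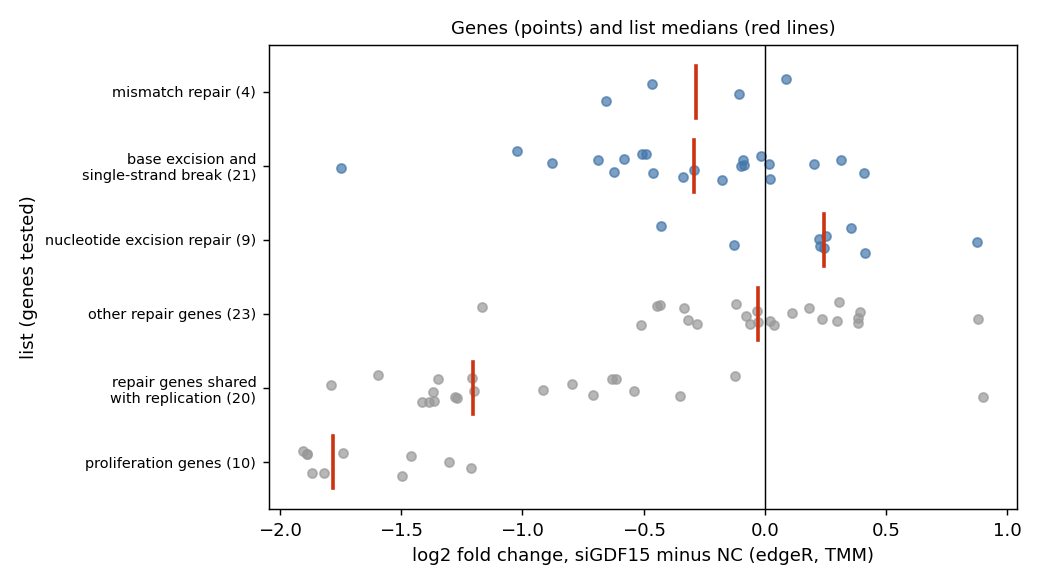
Log2 fold change of siGDF15 against NC for each tested gene (points, spread vertically for visibility) of the 3 repair pathways (blue) and of 3 comparison lists (grey), with list medians as red lines and the number of tested genes in parentheses. The nucleotide excision repair median of 0.24 lies right of 0, those of mismatch and base excision repair at -0.29 lie left, and repair genes shared with replication (-1.21) and proliferation genes (-1.78) lie furthest left.

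Promoter windows of 300 bases were found for 33 of the 36 members and searched for short words on both strands. The E2F-like words TTTGGCGC, TTTCCCGC, TTTCGCGC and TTTGCCGC, of the kind known from S phase genes, occurred in 3 members (9.09%), beside 5.69% of promoters of tested genes and 3.33% of all promoters. These were MSH6, which fell, and MSH3 and PMS2, which did not pass the test. The CHR word TTTGAA occurred in 3 members (9.09%), beside 9.23% of promoters of tested genes and 15.4% of all promoters. These were NEIL3, XRCC1 and TDP1, all among the 16 that fell, with none among the 7 that rose or the 8 without a call. The word CCAAT occurred in 9 of the 16, 2 of the 7 and 5 of the 8 matched members without a call (tested genes 37.0%), and the ETS word CCGGAAGT in 4 of the 16, 1 of the 7 and none of the 8 (tested genes 9.75%). The NRF1-like word occurred in NEIL3, TDP1 and ERCC6 (tested genes 2.47%). With so few members these shares are descriptions, and a match is not a binding site.

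The 7 letters complementary to bases 2 to 8 of the antisense strand of siGDF15, the seed through which an siRNA can also act on other transcripts, occurred in an annotated 3′UTR of PMS2, APEX2, LIG3 and ERCC3. These are 11.8% of tested members, beside 17.2% of tested genes with a 3′UTR. The median log2 fold change was -0.50 for these 4 and -0.09 for the other members, beside -0.12 and 0.01 for tested genes with and without the letters. The part of the siRNA's seed in these changes was not tested.

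Of the 36 members, 23 share exonic bases with a neighbouring gene in GENCODE release 29, and 15 of them with a partner at 1 FPKM or more. Libraries were made with a dUTP second strand, which marks strand, but whether the quantification used strand is not given in the sources used here. ERCC5 shares 63.2% of its exonic bases with the readthrough gene BIVM-ERCC5 on the same strand, so its value is uncertain. On the opposite strand, ERCC1 shares 28.6% with CD3EAP, which itself went from 12.1 to 7.17 FPKM, LIG3 shares 29.1% with RFFL, MPG shares 27.3% with NPRL3 and OGG1 shares 25.0% with CAMK1. Also on that strand, NEIL1 shares 26.4% with MAN2C1, NTHL1 16.5% with TSC2, MSH6 16.2% with FBXO11 and MUTYH 14.1% with TOE1. Among these partners NPRL3 (log2 fold change 0.30), CAMK1 (-0.41) and TOE1 (-0.44) changed in the direction of their member. CD3EAP (-0.65) changed against ERCC1. RFFL (-0.04), MAN2C1 (0.11), TSC2 (-0.09) and FBXO11 (0.15) did not pass the test. Whether shared reads link a partner and its member was not tested. ERCC4 and ERCC8 share 25.7% and 28.3% with genes at under 1 FPKM. NEIL3 and XPA share none, and PARP2 shares up to 2.54%, with an antisense gene at under 1 FPKM.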

How the data were processed

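RNA of siGDF15 and NC cells was measured in 3 libraries each. Per the labels, the authors used fastp, HISAT2 and StringTie on GRCh38, and edgeR; versions, options and the annotation release are not given in the sources used here. The authors deposited FPKM values and whole-number expected counts derived from transcript coverage, without normalization. Among counts from 1 to 20 the value 4 made up 15.6%, so they are not a tally of reads, and a fit on counts divided by 4 was run.

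Genes averaging 1 FPKM or more over all libraries (11867 of 34738) were tested on counts with edgeR 4.0.16 (TMM, quasi-likelihood, two-sided) in R 4.3.3, in a fit of the 6 libraries without a block, with standard errors from the fold change and its F statistic. DESeq2 1.42.0, limma 3.58.1, other scalings, filters, the replicate block and fits without each library were alternatives. The fit was tested on simulated data. Tables were made with Python 3.11.15, pandas 2.3.3, scipy 1.17.1 and matplotlib 3.10.9. Values per library are given for members past both thresholds, for the largest fall and rise in each role, and for some other members. Exon overlaps and 3′UTRs came from GENCODE release 29, whose gene spans equalled those of the table for 6 of the 36 members. Promoters came from RefSeq (GRCh38.p14). The members and lists were chosen with earlier results of these data known.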

Additional observations from a re-analysis of the deposited data

How the results depend on the processing

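Of the 34 tested members, none changed direction with a call under any alternative, and all 34 kept their call with DESeq2, with a filter at 0.1 FPKM and with counts divided by 4. The number of members that rose fell from 7 to 4 with total-count scaling (no TMM), without a filter, and with limma on log2 of FPKM plus 1 or plus 0.1. In these settings, in that order, the median of all tested genes lay at -0.0992, 0.0735, -0.0813 and -0.0997. The cause of the drop was not tested in any of them. The calls lost were those of MPG, ERCC1 and ERCC6. The number of members past both thresholds in the lower direction went from 2 to 1 with libraries scaled to the same median count, with upper-quartile factors and with limma on log2 of FPKM plus 1, as PARP2 came just short. Members without a call near a log2 fold change of 0, such as MSH3 and APEX1, changed sign between scalings. With each library left out in turn, 14 to 16 members fell, 6 to 9 rose, 1 to 2 passed both thresholds as lower and 0 as higher. With the replicate block 14 fell and 9 rose: APTX (adjusted p = 0.054) and RAD23B (0.059) lost their calls, and ERCC2 (0.049) and ERCC5 (0.021) gained one, all from edgeR. Deviations of libraries with the same number correlated at 0.0276, -0.0753 and 0.0458 across genes, and those with different numbers at -0.135 to 0.0891. The main fit had no block because the study's methods name none. All p-values measure the spread between these libraries.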

Other observations

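MUTYH and its neighbour TOE1, transcribed from the opposite strand, had log2 fold changes of -0.51 and -0.44. MUTYH shares 14.1% of its exonic bases with TOE1, and whether shared reads link these values was not tested. TOE1 was looked at after its values were seen.

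NC replicate 3 held the highest NC value of NTHL1 (7.83 FPKM), NEIL2 (6.75 FPKM) and ERCC2 (24.2 FPKM) and the lowest of MPG (28.7 FPKM), XPA (5.12 FPKM) and CETN2 (24.8 FPKM). The siGDF15 libraries were closer together than the NC libraries for each of these 6 genes. The 6 were named for an extreme value within NC, which by itself widens the NC spread.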
